A study of Mus musculus with 8 samples.

Results

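Serpins are a family of proteins that share one fold, and most of them are suicide inhibitors of serine proteases. The target protease cuts an exposed reactive loop, and the serpin then snaps into a new shape that traps the enzyme for good. Hepatocytes release many clade a serpins and several of clades c, d, f and g into plasma, where they restrain clotting, fibrinolysis, complement and the proteases of neutrophils, while clade b serpins mostly stay inside cells. Antichymotrypsin, encoded by Serpina3, is a classical acute-phase protein, and in the mouse the gene has multiplied into a cluster.

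The 52 serpins described here were all genes whose symbol starts with Serpin, leaving out Serpina6 and symbols that end in -ps, among 22180 genes measured. Each gene had to have a row of the table that names it alone, and where several did, the one with the top mean across the 8 arrays stood for the gene. The members were 13 clade a genes outside Serpina3, 5 Serpina3 genes, 25 clade b genes and 9 genes of clades c to i. Other serpin symbols of the RefSeq gene table (assembly GRCm38.p6) were not analysed here, among them Serpina3c, Serpina3f, Serpina3g, Serpina3h, Serpina3k and Serpina3m. The Serpina3 genes measured therefore exclude some that liver is known to make.

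The study measured liver RNA on 8 Affymetrix Mouse Gene 2.0 ST arrays. There were 4 arrays from wild-type mice and 4 labelled IL-10 knockout, all on the C57BL/6 background, labelled female and 6 weeks old. Interleukin-10, the product of the targeted gene, is a cytokine known for holding back inflammatory responses. Every mouse in both groups drank 3% dextran sulfate sodium (DSS), which injures the colon lining, for 7 days, so the comparison is between genotypes in mice that all have colitis. How the knockout allele was made, and in how many cell types it acts, is not given in the labels used here. The design text counts 4 mice of each genotype, but no label ties an array to a particular animal, so the p-values describe no more than the scatter among the arrays compared. Where 4 values are set against 4, the wild-type arrays come first, each group in the order of replicates 1 to 4.

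All values are deposited log2 levels after robust multi-array averaging (RMA), and array medians lay between 6.09 and 6.22. The row of Il10, the targeted gene, read 4.90 to 5.08 in wild-type arrays and 5.69 to 6.41 in those labelled knockout. It was not lower there (limma adjusted p = 0.00851, difference 1.00), and whether its probes lie in the deleted part is not given, so the row checks no label; these arrays are called knockout-labelled. Replicates 1 and 2 of each group carried Y-linked signal and replicates 3 and 4 carried Xist signal, against the label of female mice, and these sets are balanced across the groups. Hepatocyte markers had a summed level between 15.93 and 15.97 in wild-type arrays and between 15.91 and 15.97 in knockout-labelled ones, on the log2 scale. None of the 7 measured was called, but they did not all stay level. All knockout-labelled values lay below the wild-type ones for Alb (difference -0.12) and Ttr (-0.16), and above them for Hnf4a (0.17). The others overlapped between groups. Neutrophil markers rose in 10 of 14 genes and fell in 1, Kupffer cell and macrophage markers rose in 6 of 12, and monocyte and dendritic cell markers rose in 5 of 9. In whole liver RNA, more cells of a type and more RNA per cell cannot be told apart.

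No serpin passed the test between genotypes. Of the 52 members 0 were called by limma at an adjusted p below 0.05, against 3.15% of all genes, where 1.56% were higher and 1.59% lower in knockout-labelled arrays. At an unadjusted limma p below 0.05 there were 5 members higher (9.62%, against 11.4% of all genes) and 6 lower (11.5%, against 9.79%). The unmoderated test called 0 members too, and it called 0 of all genes. The 4 values of one group lay wholly above those of the other for 2 members higher in knockout-labelled arrays (3.85%, against 7.2% of all genes). The same held for 5 members that were lower there (9.62%, against 5.74%).

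The differences were small for most members, as for most genes. The median difference over the 52 was 0.01 on the log2 scale, against 0.03 for all genes, and the median size without sign was 0.11 for both. Of the members, 35 (67.3%, against 50% of all genes) had a mean level below the median of all genes. Their median size was 0.09, against 0.15 for the 13 members in the top 10% of levels. Rows near background limit what small differences and narrow intervals can show for the low members. The 95% interval of the difference stayed within 2-fold in either direction for 49 members, and within 1.5-fold for 47, against 21484 and 19361 of the 22180 genes. The 3 with wider intervals were Serpina3i, Serpina7 and Serpina12, which also had the largest spread within groups. Of the members 28 had a difference above 0 and 24 below, which became 21 and 31 once the medians of all arrays were made equal.

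**Figure D1:**
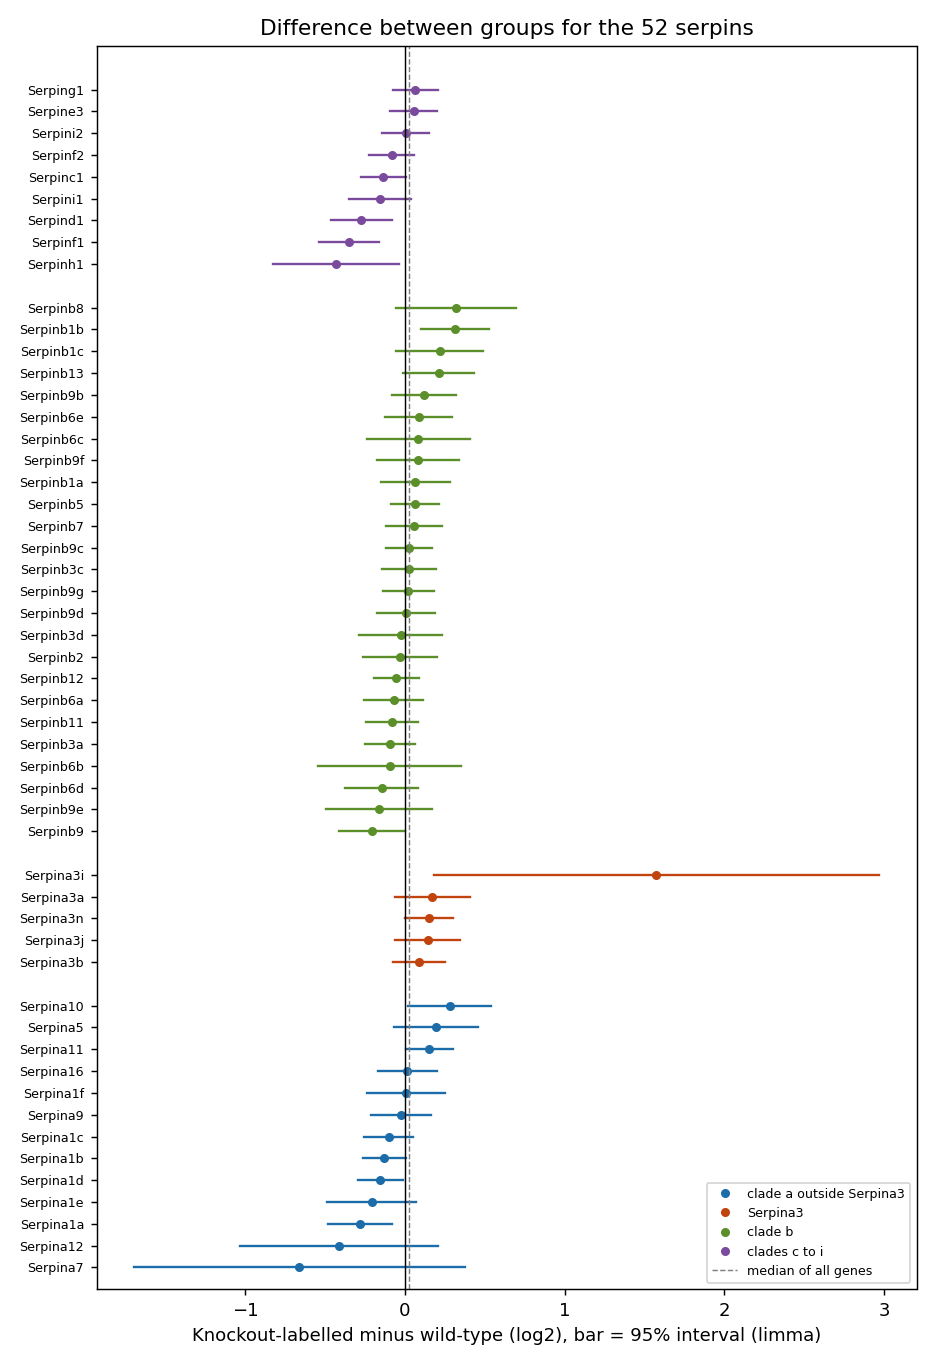
Difference between knockout-labelled and wild-type arrays for each of the 52 serpins, on the log2 scale, with its 95% interval from limma (4 arrays per group). Colours mark the clade groups and the dashed line is the median of all genes, at 0.03; Serpina3i stands far to the right with the widest interval, from 0.18 to 2.97.

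The 5 Serpina3 genes, relatives of human antichymotrypsin, lie in one cluster on mouse chromosome 12 in the RefSeq table. Their upstream sequences are shown because 1 of them, Serpina3i, differed more between arrays than any other serpin, while Serpina3n read nearly the same in all of them. These are the 250 bases before the annotated start, from RefSeq, build GRCm38.p6, plus strand: Serpina3i at chr12:104262872-104263121, Serpina3n at chr12:104406458-104406707 and Serpina3b at chr12:104127746-104127995. Capitals mark matches to the patterns searched on both strands, which are those of STAT factors (TTCNNNGAA, and the same with 1 more base in the spacer), C/EBP factors (TTGCNNNAA or TTGCNNCAA) and NF-kB (GGG, then 5 bases of any kind, then CC).
Serpina3i: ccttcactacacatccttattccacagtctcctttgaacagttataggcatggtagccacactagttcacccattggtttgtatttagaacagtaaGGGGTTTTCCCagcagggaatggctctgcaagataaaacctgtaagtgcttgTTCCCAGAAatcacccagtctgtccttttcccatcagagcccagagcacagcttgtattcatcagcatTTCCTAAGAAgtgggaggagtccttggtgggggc
Serpina3n: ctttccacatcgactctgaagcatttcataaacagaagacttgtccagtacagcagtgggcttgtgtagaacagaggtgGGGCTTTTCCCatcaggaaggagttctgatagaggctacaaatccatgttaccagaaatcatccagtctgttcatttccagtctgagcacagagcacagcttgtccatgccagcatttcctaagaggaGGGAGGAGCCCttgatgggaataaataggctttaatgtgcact
Serpina3b: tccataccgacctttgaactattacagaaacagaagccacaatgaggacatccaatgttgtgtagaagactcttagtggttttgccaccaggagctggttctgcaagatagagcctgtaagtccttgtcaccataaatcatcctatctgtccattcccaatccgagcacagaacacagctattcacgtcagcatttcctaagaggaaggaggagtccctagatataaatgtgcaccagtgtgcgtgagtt

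These 3 windows are related: aligned end to end, Serpina3i shares 63.1% of positions with Serpina3n and 63.9% with Serpina3b, and Serpina3b shares 69.7% with Serpina3n. Windows of Serpina3a and Serpina3j shared between 47.2% and 50.9% with the others and with each other. The Serpina3i window holds a STAT match with the 3-base spacer (TTCCCAGAA, first base at -102 from the start) and another with the longer spacer (TTCCTAAGAA, first base at -34). It also holds overlapping NF-kB matches from -154. The Serpina3n window holds NF-kB matches from -171 and from -43, each overlapping a second match, and no STAT match. The Serpina3b window holds none of the patterns.

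Among the 47 members with a promoter in the table, 9 (19.15%) held a STAT match with either spacer, against 14.2% of 27025 genes. In the Serpina3 group it was Serpina3i alone of 5. NF-kB matches were in 18 members (38.3%) against 48.65% of genes, and the first C/EBP pattern in 4 (8.51%) against 9.36%. The second C/EBP pattern was in 0 of them, against 1.98% of genes. The members without an entry were Serpina10, Serpina9, Serpinb13, Serpinb1a and Serping1. A match is a description of letters in this window.

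Serpina3i (row 17278296) was the serpin with the largest difference between groups, with 2 knockout-labelled arrays far above the rest. It read 5.24, 5.30, 5.75 and 5.64 against 5.94, 5.67, 7.50 and 9.12. Knockout-labelled replicates 3 and 4 were the high ones, while replicates 1 and 2 were near the wild-type range and replicate 2 lay within it. Group means of 5.48 ± 0.25 and 7.06 ± 1.59 (SD, n = 4 each) gave a difference of 1.58 on the log2 scale (SE 0.63; 95% interval 0.18 to 2.97; limma adjusted p = 0.188). The difference was 0.89 without knockout-labelled replicate 4. Both high arrays carried Xist signal: among arrays carrying Xist signal the difference was 2.62, and among those carrying Y-linked signal 0.54. The difference between these sets, Y-linked minus Xist, was -2.08 (SE 0.57; unadjusted p = 0.00539; limma adjusted p = 0.722), against 0.0271% of all genes called in the interaction.

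Neutrophil markers were highest in the arrays where Serpina3i was highest. Their summed level, on the log2 scale, was 11.89 in each of knockout-labelled replicates 3 and 4, 11.43 and 11.21 in replicates 1 and 2 of that group, and 10.59 to 10.91 in wild-type arrays. Knockout-labelled replicates 3 and 4 were also the highest arrays for 3 other marker lists. Sinusoidal endothelium read 13.60 in each and at most 13.54 elsewhere. Platelet and megakaryocyte markers read 10.55 and 10.47, and at most 10.46 elsewhere. Pancreatic acinar markers read 8.20 and 8.16, and at most 8.09 elsewhere. The part of any of these markers in the Serpina3i values was not tested. A non-serpin, the broad protease inhibitor A2m (alpha-2-macroglobulin), was also highest in knockout-labelled replicate 4, and next in replicate 3. A2m read 6.22 to 6.45 in wild-type arrays and 6.72, 7.33, 7.64 and 11.83 in knockout-labelled replicates 1 to 4. Unlike Serpina3i, it lay above all wild-type arrays in each of these, and only replicate 4 was far from the others. Its difference of 2.08 had an SE of 0.90 (limma adjusted p = 0.222), and it was picked after its values were seen.

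Serpina3n (row 17278328), the acute-phase Serpina3 gene best known from mouse liver and brain, varied little from array to array. It read 13.29, 13.22, 13.19 and 13.33 against 13.34, 13.41, 13.40 and 13.49. The groups did not overlap, although wild-type replicate 4 and knockout-labelled replicate 1 were nearly equal. The difference was 0.15 (SE 0.07; 95% interval 0.00 to 0.30; 1.11-fold; limma adjusted p = 0.225). The highest value in the whole table was 13.77, and how far readings this near it are compressed was not tested.

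The other 3 Serpina3 genes overlapped between groups. Serpina3a read 5.81, 5.77, 5.41 and 5.56 against 5.84, 5.72, 5.98 and 5.69, a difference of 0.17 (95% interval -0.06 to 0.41). Serpina3j read 4.83, 4.71, 4.53 and 4.84 against 4.78, 5.04, 4.85 and 4.80, a difference of 0.14 (-0.06 to 0.35). Serpina3b read 4.39, 4.56, 4.53 and 4.54 against 4.52, 4.59, 4.56 and 4.72, a difference of 0.09 (-0.07 to 0.25). In Serpina3a wild-type replicate 3 was the low array, and in Serpina3j knockout-labelled replicate 2 was the high one. All 5 Serpina3 genes had a mean difference above 0, as did 12430 of all 22180 genes. The same 5 were above 0 with a common median, quantile normalization or cyclic loess. Their median was 0.15 (0.10 to 0.12 under those scalings). Of the 5, only 2, Serpina3i and Serpina3n, passed a filter that left out the 40% of genes with the lowest means. None of the 5 was called, and Serpina3a had -0.01 in the arrays with Y-linked signal.

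**Figure D2:**
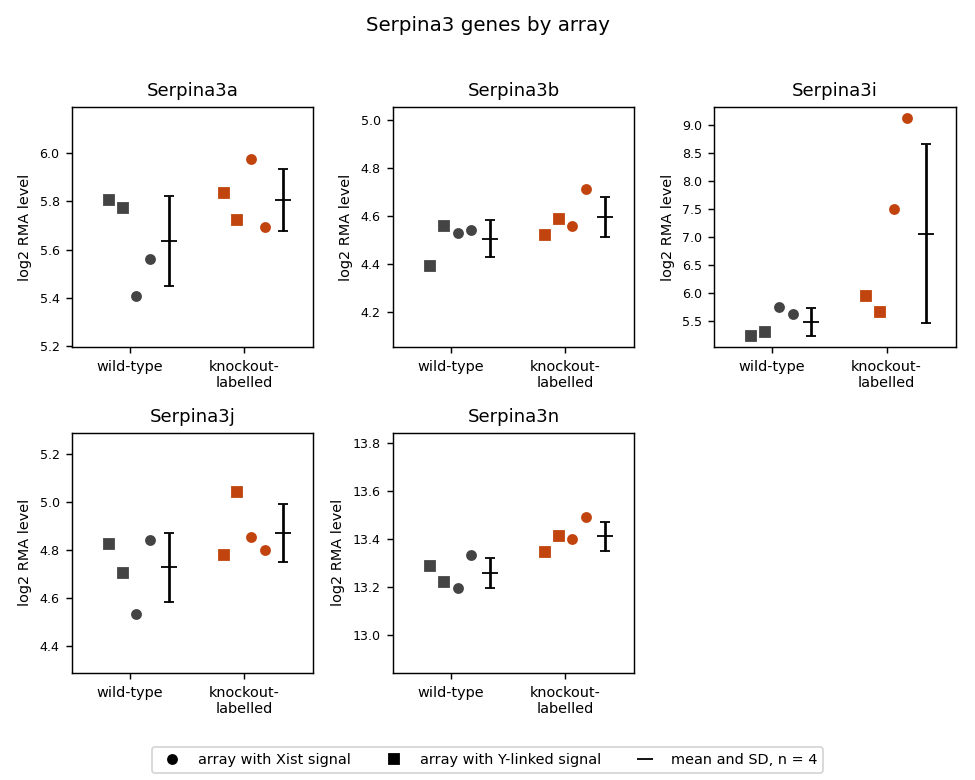
Log2 RMA level of the 5 Serpina3 genes in each array, in wild-type (grey) and knockout-labelled (orange) groups, with mean and SD of 4 arrays; circles are arrays with Xist signal and squares those with Y-linked signal. Serpina3i reached 7.50 and 9.12 in the knockout-labelled arrays with Xist signal, while Serpina3n stayed between 13.19 and 13.49 in all 8; each panel has its own range, spanning at least 1 log2 unit.

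Serpina1 genes, which encode forms of alpha-1-antitrypsin, the main plasma inhibitor of neutrophil elastase, had slightly lower means in knockout-labelled arrays. Serpina1a to Serpina1e all had a difference below 0 (median -0.15), also with a common median, quantile normalization, cyclic loess, and in each set of arrays alone, and none was called. Serpina1a (row 17283624) read 11.34, 11.35, 11.15 and 11.28 against 11.19, 11.04, 10.83 and 10.94. Only knockout-labelled replicate 1 reached into the wild-type range. Its difference was -0.28 (SE 0.09; 95% interval -0.48 to -0.08; limma adjusted p = 0.121).

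Serpina1d (row 17283617) read 12.85, 12.79, 12.82 and 12.83 against 12.65, 12.73, 12.60 and 12.70, and its groups did not overlap. Its difference was -0.15 (SE 0.06; limma adjusted p = 0.200). Serpina1b, also without overlap, read 7.74, 7.72, 7.67 and 7.71 against 7.57, 7.63, 7.55 and 7.57. The gap between these groups was narrow, and the difference of -0.13 had a limma adjusted p of 0.251.

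Serpina1c and Serpina1e overlapped between groups. Serpina1c read 13.03, 13.10, 13.04 and 13.09 against 12.94, 13.09, 12.86 and 12.97, a difference of -0.10 (95% interval -0.26 to 0.05). Serpina1e read 11.74, 11.76, 11.45 and 11.53 against 11.63, 11.52, 11.07 and 11.43, a difference of -0.21 (-0.49 to 0.07). In both genes knockout-labelled replicate 3 was the lowest array. Serpina1f, a more distant relative, read 6.23, 5.76, 6.19 and 6.05 against 6.10, 6.18, 6.06 and 5.91, a difference of 0.01 (-0.24 to 0.25). Several of these genes are close copies: the 250 bases upstream of Serpina1a, Serpina1b, Serpina1c and Serpina1d share 84.3% to 91.4% of positions, and Serpina1e shares 58.8% to 64.2% with them. Rows of such copies may read each other's transcripts, so their values are uncertain as single genes.

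Among clade a outside Serpina3, 5 of 13 differences were above 0 and 8 below (3 and 10 with a common median), with a median of -0.10. The largest were those of a hormone carrier, an adipokine and a clotting inhibitor, and none passed the test. Serpina7 (row 17544837), the thyroxine-binding globulin, read 10.14, 9.94, 10.91 and 11.34 against 10.93, 9.24, 8.91 and 10.60. Both groups spanned more than 1 log2 unit and overlapped widely. The difference was -0.66 (SE 0.46; 95% interval -1.70 to 0.37; limma adjusted p = 0.436). Serpina7 is the only measured member on chromosome X. Xist arrays alone gave -1.37 and Y-linked arrays alone 0.05, and the value was -0.32 without knockout-labelled replicate 3.

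Serpina12, known as vaspin, read 6.34, 7.32, 6.01 and 5.85 against 6.21, 5.76, 5.75 and 6.15. Wild-type replicate 2 was the high value, and without it the difference of -0.41 became -0.10 (limma adjusted p over all arrays = 0.420). Serpina10, which with protein Z inhibits clotting factor X, read 11.71, 11.86, 11.80 and 11.92 against 12.22, 12.05, 11.78 and 12.36. Knockout-labelled replicate 3 lay within the wild-type range and the others above it, with a difference of 0.28 (SE 0.12; limma adjusted p = 0.209). Serpina11 was the other member with all knockout-labelled values above the wild-type ones, at 10.40 to 10.51 against 10.56 to 10.72 (difference 0.15; limma adjusted p = 0.220). Serpina5, the protein C inhibitor, Serpina9 and Serpina16 had differences of 0.20, -0.02 and 0.02.

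Clades c to i hold the large plasma inhibitors of clotting, fibrinolysis and complement, and the members with lower means led here. Of the 9 genes 6 had a difference below 0 and 3 above, with a median of -0.13, and the count below 0 was 7 or 8 under the 3 scalings tried. Serpinf1 (row 17265958), which encodes pigment epithelium-derived factor, a serpin that does not inhibit proteases, came nearest to the threshold of all members. It read 10.18, 10.19, 10.28 and 10.07 against 9.99, 9.87, 9.78 and 9.67. All knockout-labelled arrays were lower than all wild-type arrays. Mean levels of 10.18 ± 0.08 and 9.83 ± 0.14 (SD, n = 4 each) gave a difference of -0.35 (SE 0.08; 95% interval -0.54 to -0.16; limma adjusted p = 0.0555).

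Serpinf1 passed once the set (Xist or Y-linked) was a block (difference -0.35; limma adjusted p = 0.0456), the 1 member among 52 to do so, where 4.68% of all genes were called. It also passed with low genes left out (limma adjusted p = 0.0441) and without knockout-labelled replicate 1 (0.0321). Over 21 alternatives its adjusted p lay between 0.0321 and 0.456. Xist arrays alone gave -0.45 and Y-linked arrays alone -0.25.

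Serpinh1 (row 17493658), the collagen chaperone Hsp47 of the endoplasmic reticulum, read 7.66, 7.63, 8.04 and 7.50 against 7.81, 6.99, 7.13 and 7.18. Knockout-labelled replicate 1 lay within the wild-type range and the other 3 below it. The difference was -0.43 (SE 0.18; 95% interval -0.83 to -0.04; limma adjusted p = 0.200), and -0.61 without knockout-labelled replicate 1 (limma adjusted p = 0.0316). Stellate cell and fibroblast markers were called lower in 2 of 11 genes, Lrat and Lum, with none higher and a list median of -0.25. Among those not called, Reln had -0.87, while the collagen genes Col1a1, Col1a2 and Col3a1 had -0.11, -0.08 and -0.16. The summed level of the 11 markers was 12.57 to 12.88 in wild-type and 11.89 to 12.65 in knockout-labelled arrays. In the knockout-labelled group replicate 1 was the highest at 12.65 and replicate 2 the lowest at 11.89. The part of these markers in the Serpinh1 and Serpinf1 values was not tested.

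Serpind1 (row 17323457), heparin cofactor II, which inhibits thrombin, read 12.73, 12.71, 12.79 and 12.71 against 12.57, 12.51, 12.55 and 12.23. The groups did not overlap, and knockout-labelled replicate 4 was the lowest. The difference was -0.27 (SE 0.09; 95% interval -0.46 to -0.08; limma adjusted p = 0.111). Serpinc1, antithrombin, also had its groups apart, at 12.68 to 12.76 against 12.54 to 12.68, with nearly no gap between wild-type replicate 2 and knockout-labelled replicate 1, and differed by -0.13 (SE 0.06; limma adjusted p = 0.258).

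The remaining members of these clades had small differences. Serpinf2, which inhibits plasmin, read 12.97 to 13.06 in wild-type and 12.90 to 13.01 in knockout-labelled arrays. Serping1, the inhibitor of the first complement component and of kallikrein, read 12.96 to 13.05 and 12.99 to 13.11. Their differences were -0.08 (95% interval -0.22 to 0.06) and 0.07 (-0.07 to 0.21). Serpini1, the neuroserpin, Serpini2 and Serpine3 had differences of -0.16, 0.01 and 0.06.

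**Figure D3:**
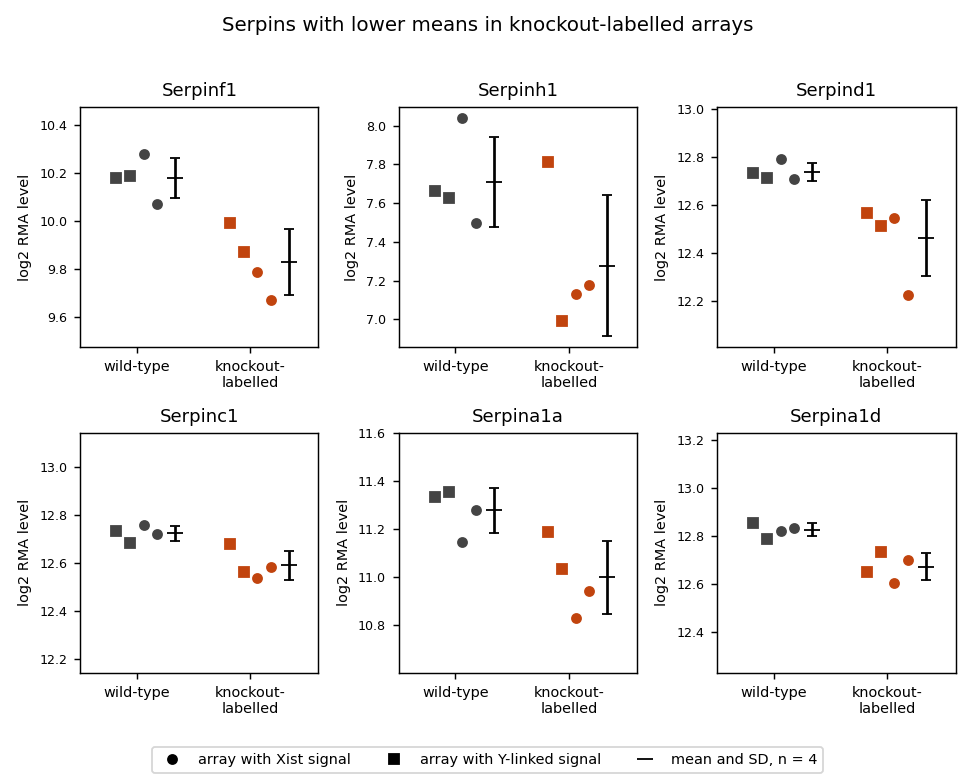
Log2 RMA level by array of 6 serpins with lower means in the knockout-labelled group (orange) than in wild-type (grey), with mean and SD of 4 arrays; circles mark Xist and squares Y-linked signal. For Serpinf1, Serpind1, Serpinc1 and Serpina1d no knockout-labelled array reached the wild-type range, while Serpinh1 and Serpina1a overlapped in 1 knockout-labelled array.

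Clade b serpins act mostly inside cells, on proteases that leak from granules or lysosomes. Of the 25 measured, 5 passed the filter on low values used as an alternative. Their differences lay between -0.21 and 0.32 with a median of 0.03, which was -0.02 with a common median per array. There were 15 above 0 and 10 below (11 and 14 with a common median), and 17 were within 0.1 of 0. In no member were the groups apart. Serpinb9 (row 17286365), the inhibitor of granzyme B, read 8.40, 8.36, 8.49 and 8.19 against 8.27, 8.20, 7.95 and 8.19. Wild-type replicate 4 was level with knockout-labelled replicates 2 and 4, and knockout-labelled replicate 3 was the lowest. The difference was -0.21 (SE 0.09; limma adjusted p = 0.234).

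Serpinb8 (row 17216478) gave differences of opposite sign in the sets of arrays, but its groups overlapped in those with Xist signal. It read 6.00 and 6.03 in wild-type and 6.62 and 6.92 in knockout-labelled arrays with Y-linked signal, and 6.74 and 6.45 against 6.48 and 6.49 in those with Xist signal. The differences were 0.75 and -0.11, and 0.32 over all 8 arrays (SE 0.17; limma adjusted p = 0.305). The difference between the sets had an unadjusted limma p of 0.00169 and an adjusted p of 0.521, so it did not pass over all genes.

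Serpinb1b and Serpinb1c, relatives of the inhibitor of neutrophil elastase and cathepsin G, had positive differences. The Serpinb1b row was low, at percentile 12.3 of the mean levels of all genes, and did not pass the filter on low values. Serpinb1b read 4.15, 4.49, 4.22 and 4.34 against 4.76, 4.53, 4.69 and 4.49, and wild-type replicate 2 reached the lowest knockout-labelled array. The difference was 0.32 (SE 0.10; 95% interval 0.10 to 0.53; limma adjusted p = 0.101). Serpinb1c read 6.14, 6.52, 5.87 and 6.15 against 6.31, 6.51, 6.41 and 6.31 (difference 0.22; limma adjusted p = 0.336). Serpinb1a, their better known relative, read 6.02 ± 0.18 and 6.08 ± 0.10 (SD, n = 4 each), a difference of 0.07 with a 95% interval of -0.15 to 0.28.

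Other clade b members had differences of at most 0.21 in size. Serpinb6a differed by -0.07, Serpinb6b by -0.09, Serpinb6c by 0.09, Serpinb6d by -0.15 and Serpinb6e by 0.09. Serpinb9b to Serpinb9g differed by -0.16 to 0.12, Serpinb13 by 0.21, and Serpinb2, which inhibits plasminogen activators, by -0.03. Serpinb3a, Serpinb3c, Serpinb3d, Serpinb5, Serpinb7, Serpinb11 and Serpinb12 lay between -0.09 and 0.06. The 10 clade b genes on chromosome 1, which also carries Il10, had a median difference of 0.00, and the 15 on chromosome 13 had one of 0.03. Among the measured members, antithrombin is the other one on chromosome 1.

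Between the arrays with Y-linked and with Xist signal 0 serpins passed, with genotype in the model, where 0.198% of all genes were called. At an unadjusted limma p below 0.05 there were 4 (7.69%, near the 6.74% of all genes): Serpina1a and Serpina1e were higher by 0.18 and 0.29 with Y-linked signal, Serpinb3d by 0.25, and Serpina3i had a difference of -1.46. In the interaction of genotype and set 0 serpins passed and 3 were below an unadjusted limma p of 0.05 (5.77%, near the 5.48% of all genes), namely Serpina3i, Serpinb8 and Serpinb9b (-0.42 for the genotype difference in Y-linked minus that in Xist arrays).

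**Figure D4:**
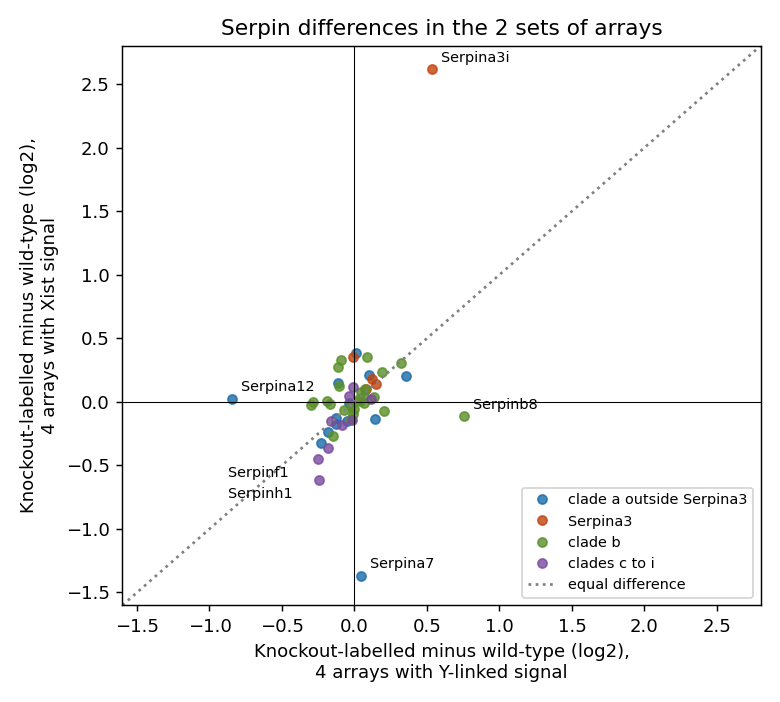
Difference between knockout-labelled and wild-type arrays (log2) for each serpin in the 4 arrays with Y-linked signal (x axis) and in the 4 with Xist signal (y axis), each from 2 arrays per group. Most members lie near 0 on both axes, whereas Serpina3i (0.54 and 2.62), Serpina7 (0.05 and -1.37), Serpinb8 (0.75 and -0.11) and Serpina12 (-0.84 and 0.02) lie far from the line of equal difference.

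Other acute-phase genes of liver held several that passed the test. Of 26 measured, 8 rose and 18 did not pass, all 26 had a difference above 0, and the median was 0.22, beside 0.15 over the 5 Serpina3 genes and 0.03 over all genes. Saa3, a serum amyloid, read 9.37 ± 0.50 in wild-type and 12.75 ± 0.42 in knockout-labelled arrays, a difference of 3.37 (SE 0.26; limma adjusted p = 0.00267). Cd14 (2.51), Hamp (2.23), Il1rn (2.11), Orm3 (1.86), Steap4 (0.89), Lcn2 (0.82) and Lbp (0.61) rose as well. These rises stood beside the higher neutrophil and macrophage markers given above, whose part was not tested.

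Signalling genes that lead to acute-phase transcription moved in both directions. Of 18 measured, the interleukin-1 receptor Il1r1 (1.44), the C/EBP factor Cebpd (0.84) and the NF-kB inhibitor Nfkbia (0.62) rose, the leukemia inhibitory factor receptor Lifr fell by 0.66, and 14 did not pass. The median was 0.16. Osmr (0.92), the oncostatin M receptor, had a limma adjusted p of 0.0538 and Stat3 (0.24) one of 0.103.

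Proteases that serpins inhibit or meet in plasma and granules had a median of 0.05 over 28 genes. Ctss (0.69), a lysosomal cysteine protease of macrophages, and Mmp8 (2.16), a neutrophil metalloprotease that is no serpin target, rose, and the granule protease Prtn3 fell by 0.72. The other 25 did not pass. Nearest to the threshold was Ctsl (0.49; limma adjusted p = 0.055), a lysosomal cysteine protease whose groups did not overlap. Others that did not pass were thrombin (F2, -0.05), factor X (F10, -0.17), plasminogen (Plg, 0.01), neutrophil elastase (Elane, 0.06), cathepsin G (Ctsg, 0.22) and granzyme B (Gzmb, 0.12).

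Inhibitors of other families had a median of -0.03 over 30 genes. Wfdc2 (0.32) rose, Itih5 fell by 0.78 and 28 did not pass, with values of -0.63 for Tfpi2 (limma adjusted p = 0.0555) and -0.32 for Tfpi, which restrains the start of clotting. A list of 10 genes for cofactors and receptors of serpins also held related genes such as Ttr, Agt and Col1a1. In it the glucocorticoid receptor Nr3c1, itself neither cofactor nor receptor of a serpin, fell by 0.32 and 9 did not pass. Lrp1, which clears serpin-protease complexes, had 0.24 (limma adjusted p = 0.128), the thyroid hormone carrier Ttr -0.16, the thrombin receptor Thbd 0.45 and Vtn, the plasma adhesion protein vitronectin, 0.02.

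**Figure D5:**
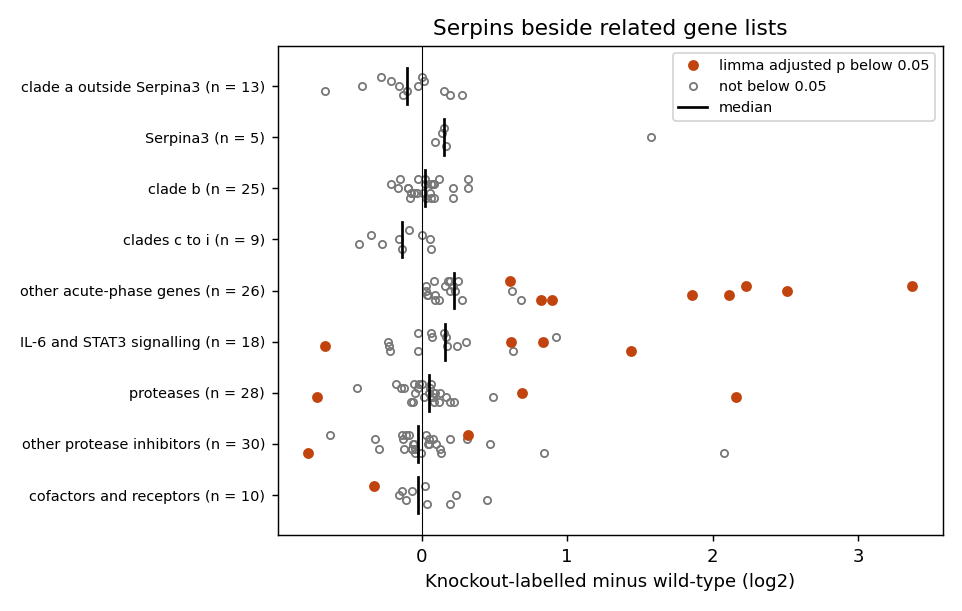
Difference between knockout-labelled and wild-type arrays (log2) for the serpins in 4 clade groups and for 5 lists of related genes, 1 point per gene, with the median as a bar. Filled orange points passed limma at an adjusted p below 0.05. There were 0 serpins, 8 of 26 other acute-phase genes, 4 of 18 signalling genes and 3 of 28 proteases. There were also 2 of 30 other inhibitors and 1 of 10 in the list of cofactors and receptors, Nr3c1, which is neither.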

How the data were processed

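The authors deposited log2 levels; the submitters' processing notes name robust multi-array averaging (RMA) and R 3.0.1 but no settings or genome build. RMA draws arrays towards a common distribution, which can hide a shift shared by most genes. The deposited medians still differed, at 6.090 to 6.165 in wild-type and 6.153 to 6.222 in knockout-labelled arrays. The median difference over all genes was 0.025, and -0.026 with a common median per array, so small differences depend on the scaling. The table holds 41345 rows; 23521 name 1 gene, 1814 several, and 16010 are not listed in the platform annotation. The 52 members all matched the RefSeq gene table (GRCm38.p6) by gene number.

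Groups were compared over all 22180 genes in R 4.3.3 (limma 3.58.1: lmFit, then eBayes), knockout-labelled minus wild-type, with no covariate or filter and Benjamini-Hochberg adjustment over all genes; a call is an adjusted p below 0.05. Intervals come from the same fit. The 8 arrays limit the precision. Leaving out the 40% of genes with the lowest means kept 22 members. Xist was set against 3 Y-linked genes (Eif2s3y, Kdm5d and Uty; Ddx3y has no row of its own). In Python 3.11.15, Biopython 1.88 aligned promoters and matplotlib 3.10.9 drew the figures. The fit was tested on simulated data.

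Members and lists were chosen with earlier results of these data known. Values in every array are given for called members, Serpina1 and Serpina3 genes and the 3 largest differences in each other clade group; other members named were picked after their values were seen. Of each list, called genes and up to 4 with the smallest p are named, with a few others by role.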

Additional observations from a re-analysis of the deposited data

Results flagged for a closer look

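Serpind1 in knockout-labelled replicate 4 read 12.23, with the nearest array of its group at 12.51, a gap of 0.834 of the group's range. It was the 1 group that stood apart in this way among 40 groups of 4 tested, and chance alone marks about 1 in 20. Without that array the Serpind1 difference was -0.19.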

How the results depend on the processing

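Under 23 alternatives no serpin was called higher, over all members or in any clade group. The count called lower, over all members and in clades c to i alike, was 1 with low genes left out, 1 with the set of arrays (Xist or Y-linked) as a block and 1 at an adjusted p below 0.1, each time Serpinf1. It ranged from 0 to 2 over the 8 fits without 1 array, with 2 (Serpinf1 and Serpinh1) without knockout-labelled replicate 1. The other clade groups had 0 under every alternative tried. Leaving out low genes tested 13308 genes in place of 22180. For the 20 members chosen by rule, 4 of 415 gene-level alternatives passed (3 for Serpinf1, 1 for Serpinh1). Of these members 15 kept their sign throughout. Serpina12, Serpina1f, Serpina3a, Serpina7 and Serpinb8 did not, and none of these was called. Several alternatives, such as the unmoderated test and the blocks, left the difference itself as it was, so the sign could not change there. With the replicate number as a block, 0 members were called and Serpinf1 had -0.35 (limma adjusted p = 0.0806). The numbers are tied to no litter or day, and same-numbered arrays did not deviate together in every pair (correlations of deviations over genes, across genes that are not independent, from -0.10 to 0.29), so the comparison is unpaired. Across other pairs the correlations ran from -0.36 to 0.31. Wild-type replicate 1 gave 0.27 and 0.29 with knockout-labelled replicates 1 and 2, and wild-type replicate 4 gave 0.31 and 0.29 with replicates 3 and 4. These pairs share a set (Xist or Y-linked). Wild-type replicates 2 and 3 gave only -0.16 to 0.10. All genes called numbered 497 with that block, 332 with every row tested, 1038 with the Xist and Y-linked block, 317 and 171 in the Xist and Y-linked arrays alone, 1685 at an adjusted p below 0.1, 377 with a 1.5-fold minimum, 0 unmoderated and 207 to 1040 without 1 array, against 699. Of these 699, 49.6% were higher, against 38.8% with a common median per array. Rows near background limit the low members: the filter on low values kept 22 of 52, which had 7 differences above 0 and 15 below.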

Other observations

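Rows outside the rule also name serpins. The row shared by Serpinb10 and Serpinb2 differed by 0.20, that of Serpinb6a and a neighbouring transcript by 0.11, and a second row of Serpinb9b by 0.07, with overlapping groups in all 3.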
